A study of Mus musculus with 6 samples.

Results

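*Alx1*, *Alx4*, *Prrx1* and *Prrx2* encode paired-class homeodomain TFs, and binding of Gli3 and Hand2 around these 4 of 21951 protein-coding mouse genes was examined in facial tissue. The genes were chosen as a family of mesenchymal regulators and not by a measured value, although earlier results of these data were known. For each gene, every ChIP-seq peak with its midpoint within 100 kb of the gene body was taken, which gave 97 of 70762 peaks: 7 of 5427 Gli3 peaks from the mandibular prominence (MNP), 12 of 5752 Gli3 peaks from the whole face and 78 of 59583 Hand2 peaks from the MNP. The 3 groups were Gli3 in the MNP of *Gli3* 3XFlagbio embryos, Gli3 in the whole face of *Gli3* 3XFlagbio embryos and Hand2 in the MNP of embryos labelled *Hand2* 3XFlagbio, an allele that the methods call *Hand2* 3xFlag. All were CD1 embryos labelled E11.5, although the text of the series gives E10.5. In both alleles a FLAG tag sits on the endogenous gene, the embryonic tissue was pooled, the M2 antibody against FLAG was used throughout, and a mock ChIP came from wild-type tissue. Each group had 2 replicates, which the authors joined into 1 list of shared peaks, so no value below has an error between replicates, and no difference between groups was tested. The lists hold positions without heights or read counts, and the depth behind each peak is unknown. Peaks at the 4 genes had a median width of 530 bp in the Gli3 MNP list, 222.5 bp in the whole face list and 510.5 bp in the Hand2 list, compared to 577, 222 and 451 bp over the whole lists.

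Alx and Prrx proteins mark the mesenchyme that cranial neural crest cells form in the facial prominences, and the Prrx genes are also used in limb mesenchyme. Alx1 is required for formation of the anterior head, Alx4 acts in frontonasal and limb patterning, and Prrx1 and Prrx2 act with overlapping functions in growth of the jaw and limb skeleton. Gli3 is the zinc finger TF that acts mainly as a repressor in Hedgehog signaling, and it binds sequences close to GACCACCC. Hand2 is a basic helix-loop-helix TF of the medial MNP that binds E-boxes of the form CANNTG, with CAGATG a preferred version, while homeodomain proteins commonly bind cores such as TAATTA.

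The sequences of the sites described most below, read from GRCm38 (mm10) and written 5′ to 3′, are shown to make clear how near each comes to the Gli sequence GACCACCC. The first set holds the Gli3 peaks found in both tissues, with the 8 bases nearest to GACCACCC in capitals. At *Prrx2* this is the whole face peak (chr2:30821670-30821886, plus strand), at *Prrx1* the whole face peak (chr1:163315023-163315227, minus strand) and at *Alx4* the MNP peak (chr2:93549711-93549918, minus strand).
Prrx2 upstream, shared: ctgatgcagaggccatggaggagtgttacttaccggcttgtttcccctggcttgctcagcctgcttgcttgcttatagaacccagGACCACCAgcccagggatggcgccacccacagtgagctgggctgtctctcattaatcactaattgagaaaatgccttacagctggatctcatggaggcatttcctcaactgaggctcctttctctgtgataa
Prrx1 upstream, shared: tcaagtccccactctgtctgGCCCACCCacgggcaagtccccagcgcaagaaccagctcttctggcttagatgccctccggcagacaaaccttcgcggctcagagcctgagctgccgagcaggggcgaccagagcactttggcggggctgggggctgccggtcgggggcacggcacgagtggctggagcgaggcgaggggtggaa
Alx4 far upstream, shared: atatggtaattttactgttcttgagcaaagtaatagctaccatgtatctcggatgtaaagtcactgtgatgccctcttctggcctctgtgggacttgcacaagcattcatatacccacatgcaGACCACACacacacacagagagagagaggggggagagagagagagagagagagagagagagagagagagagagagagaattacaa

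The *Prrx2* sequence differed from GACCACCC by C8A, the *Prrx1* sequence by A2C and the *Alx4* sequence by C7A, with positions counted from 1 at the 5′ end of GACCACCC. The next set holds the 68 bp around the only exact copies of GACCACCC in the Gli3 peaks of these genes, at chr1:163310585-163310652 (plus strand) and chr2:30801458-30801525 (minus strand), and around the best 8 bases of the single Gli3 peak at *Alx1* (C7A, chr10:103024075-103024142, minus strand).
Prrx1 intron, Gli3 MNP: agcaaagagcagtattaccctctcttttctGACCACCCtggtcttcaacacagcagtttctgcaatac
Prrx2 far upstream, Gli3 whole face: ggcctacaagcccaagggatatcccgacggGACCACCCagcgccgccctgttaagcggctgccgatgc
Alx1 intron, Gli3 whole face: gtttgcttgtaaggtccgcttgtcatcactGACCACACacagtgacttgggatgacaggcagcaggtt

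For Hand2, the sequences show the E-boxes of a peak upstream of *Alx4* (chr2:93611718-93611920) and of one in *Alx1* (chr10:103001018-103001193), and the only close pair of a TAATTA with a CAGATG, at *Prrx2* (chr2:30833790-30833859). All 3 are on the plus strand, the capitals mark these elements, and CATCTG is CAGATG read from the other strand.
Alx4 upstream, Hand2: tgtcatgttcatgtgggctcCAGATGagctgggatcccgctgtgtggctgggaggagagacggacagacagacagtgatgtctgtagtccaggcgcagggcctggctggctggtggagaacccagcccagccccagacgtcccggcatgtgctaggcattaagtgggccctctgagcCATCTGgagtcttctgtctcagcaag
Alx1 intron, Hand2: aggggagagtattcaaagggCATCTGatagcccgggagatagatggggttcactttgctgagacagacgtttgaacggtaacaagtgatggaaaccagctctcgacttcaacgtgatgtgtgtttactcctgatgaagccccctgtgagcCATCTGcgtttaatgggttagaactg
Prrx2 promoter side, Hand2: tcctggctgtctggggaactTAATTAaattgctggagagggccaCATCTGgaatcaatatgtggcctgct

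Within 100 kb, Hand2 peaks were denser at *Alx4* and *Prrx1* than at *Prrx2* and *Alx1*. *Prrx1* had 28 Hand2 peaks within 100 kb, *Alx4* had 26, *Prrx2* had 16 and *Alx1* had 8, compared to a median of 6 over all protein-coding genes. Only 1.10% of all genes had as many Hand2 peaks as *Prrx1* and 1.41% as many as *Alx4*, whereas 6.86% had as many as *Prrx2* and 35.9% as many as *Alx1*. The windows differ in length with the gene, and per 100 kb of window *Alx4* held 10.9 peaks, *Prrx1* 10.4, *Prrx2* 6.50 and *Alx1* 3.46. At least that density was reached by 0.374% of all genes for *Alx4* and 0.487% for *Prrx1*. The order turned with the window: within 200 kb *Alx4* had 43 Hand2 peaks, *Prrx2* 42, *Prrx1* 32 and *Alx1* 17, and within 50 kb *Alx4* and *Prrx1* had 17 each, *Prrx2* 12 and *Alx1* 6. Counting only peaks whose nearest start was that of the gene, *Prrx1* had 14, *Prrx2* and *Alx1* 7 each and *Alx4* 6. All 4 genes had at least 1 Hand2 peak, compared to 89% of all genes.

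Each gene had 5 or fewer peaks in either Gli3 list. In the MNP, *Prrx1* had 3, *Alx4* and *Prrx2* had 2 each and *Alx1* had 0, compared to a median of 1 over all genes. As many Gli3 MNP peaks as at *Prrx1* were found at 13.2% of genes, and as many as at *Alx4* or *Prrx2* at 28.9%. In the whole face, *Prrx2* had 5 peaks, *Prrx1* 4, *Alx4* 2 and *Alx1* 1, compared to a median of 0 over all genes. Here 1.24% of genes had as many as *Prrx2*, 3.18% as many as *Prrx1*, 19.9% as many as *Alx4* and 46.1% as many as *Alx1*. At least 1 Gli3 peak was present at 3 of the 4 genes in the MNP, compared to 56.1% of all genes, and at 4 of 4 in the whole face, compared to 46.1% of all genes. Peaks of all 3 lists occurred at 3 of the 4 genes, *Alx1* being the exception, and at 36.3% of all genes.

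**Figure D1:**
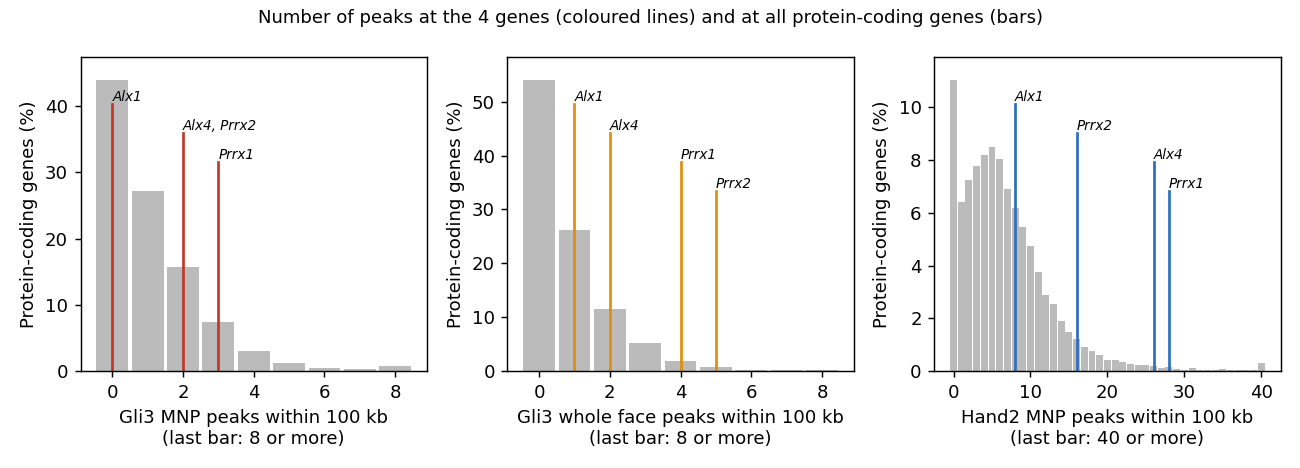
Percent of all 21951 protein-coding genes (grey bars, y axis) by the number of peaks within 100 kb (x axis) for each list, with the 4 genes as coloured lines whose height has no meaning. *Alx4* with 26 and *Prrx1* with 28 Hand2 peaks lie far out in the right panel, while *Alx1* with 8 lies near the median of 6.

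The Hand2 peaks lay on different sides of the genes. At *Alx4*, 10 were upstream, 3 in the gene body and 13 downstream, and at *Prrx1* 13 were upstream, 6 in the body and 9 downstream. *Prrx2* had 7 upstream, 6 in the body and 3 downstream, so that its body carried 13.0 Hand2 peaks per 100 kb, compared to 7 in the upstream 100 kb and 3 in the downstream 100 kb. *Alx1* had 1 upstream, 3 in the body and 4 downstream. Many of these peaks were nearer to the start of another gene: the nearest protein-coding start was that of *Alx4* for 6 of its 26 peaks, with *Ext2*, a heparan sulfate polymerase gene that overlaps the end of *Alx4*, nearest for 13 and *Gm10803* for 7. The nearest start was *Prrx1* for 14 of 28 peaks, with *Gorab* nearest for 9 and *Mroh9* for 5. It was *Prrx2* for 7 of 16 peaks, the others going to *1700001O22Rik*, *Ntmt1*, *Ptges* and *Tor1b*, and *Alx1* for 7 of 8, with *Lrriq1* nearest for the other. Which gene a peak acts on was not measured.

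**Figure D2:**
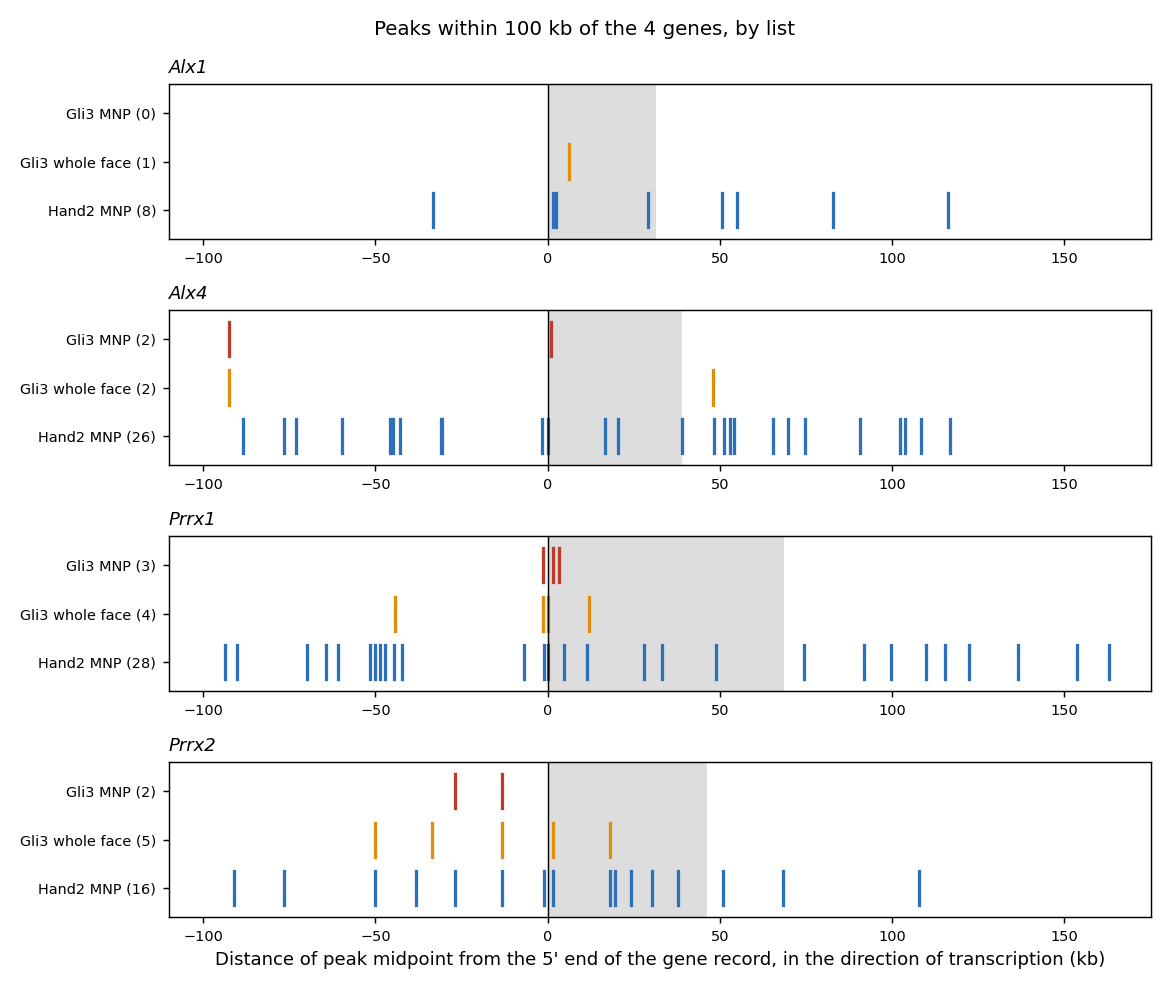
Midpoint of each peak (vertical bars, one row per list, with the number of peaks) by its distance in kb from the 5′ end of each gene record, in the direction of transcription, with the gene body in grey. Gli3 peaks cluster at the 5′ end of *Prrx1*, lie mainly upstream of *Prrx2* and number 1 at *Alx1*, while the 26 and 28 Hand2 peaks of *Alx4* and *Prrx1* span the whole window.

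*Alx1* (ENSMUSG00000036602.14, chr10:102998707-103030215, minus strand) had 1 Gli3 peak and 8 Hand2 peaks within 100 kb. The single Gli3 peak, in the whole face, lay in an intron 4705 bp past the nearest annotated start (chr10:103023902-103024243), overlapped no Hand2 peak and no Gli3 MNP peak, and contained 0 copies of CAGATG. A Hand2 peak of 793 bp (chr10:103028320-103029112, in an untranslated exon) covered an inner protein-coding start, with its midpoint 61 bp past that start and 1499 bp from the 5′ end of the gene record, so it is a promoter peak only by the inner start. A second of 291 bp lay 1114 bp past the same start. The widest was 1169 bp (chr10:102974532-102975700), 53661 bp downstream of the start and beyond the 3′ end, and held no CAGATG. Of the 8 Hand2 peaks, 4 carried CAGATG, compared to 47.1% of the whole Hand2 list. The intronic peak printed above (chr10:103000940-103001331, 27642 bp from the start) carried 2 copies. The 8 peaks were poor in G and C, with a median GC content of 37.4% compared to 46.9% in the whole Hand2 list.

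*Alx4* (ENSMUSG00000040310.12, chr2:93642384-93681339, plus strand) had its Gli3 peaks at the promoter, far upstream and beyond the 3′ end. The promoter peak was found in the MNP only. It was 1434 bp wide (chr2:93642524-93643957, midpoint 852 bp inside the gene), and 6.15% of Gli3 MNP peaks were as wide. Its GC content was 63.9%. It held 9 copies of CCTCC, a short form of the divergent Gli sequence, and 90.2% of all Gli3 MNP peaks held at least 1. It held 0 copies of GACCACCC, with GCCCACCC (A2C) as its nearest 8 bases. Its first 279 bp overlapped a Hand2 peak of 449 bp over the start itself (chr2:93642354-93642802, midpoint at 190 bp), and the midpoints were 662 bp apart. By the entry names, 5 calls of replicate 1 and 1 of replicate 2 were joined in the Gli3 peak.

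The far upstream site of *Alx4*, 92570 bp from its start, was the only one of these genes found in both Gli3 lists and not in the Hand2 list. The MNP and whole face peaks there shared 125 bp. Of the MNP peak 59.1% was masked as repeat in the reference, the sequence printed above ends in a run of GA units, and the nearest start was that of *Gm10803*. The third site was a whole face peak in an intron of *Ext2*, 47939 bp from the *Alx4* start (chr2:93690226-93690429), and it lay wholly inside a Hand2 peak of 1194 bp. No 8 bases of it came nearer than 3 mismatches to GACCACCC.

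Hand2 peaks at *Alx4* formed runs. With gaps of at most 5 kb, 4 runs of 3 or more peaks were found there, of 3, 4, 3 and 3 peaks, one upstream and the others downstream within *Ext2*. The last held the widest Hand2 peak of any of these genes, 1592 bp (chr2:93743912-93745503, 102319 bp from the start), and 0.455% of Hand2 peaks were as wide. Over all 4 genes, 28 of 78 Hand2 peaks lay in such runs, compared to 17.7% of the whole list. CAGATG was present in 15 of the 26 peaks of *Alx4*, compared to 47.1% of all Hand2 peaks. Over the 4 genes, 7 of 78 Hand2 peaks held 2 or more copies, compared to 15.6% of the list. Of the 26 peaks of *Alx4*, 5 did. These were at 88521 and 30580 bp upstream, with 2 copies each, at 20382 bp in an intron with 3 copies, and at 69818 and 102319 bp downstream with 2 copies each. The peak at 88521 bp (chr2:93553477-93554249) also held 1 copy of GACCTCCC, the divergent Gli 8 bases.

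*Prrx1* (ENSMUSG00000026586.16, chr1:163245119-163313710, minus strand) was the gene with most Gli3 peaks at its 5′ end. The midpoints of all 3 Gli3 MNP peaks lay between 1372 bp upstream and 3167 bp downstream of the start, and *Prrx1* had the nearest start for each. The middle one was 2329 bp wide (chr1:163310976-163313304, midpoint 1528 bp inside), and 0.977% of Gli3 MNP peaks were as wide. It joined 8 calls of replicate 1 and 4 of replicate 2, held 10 copies of CCTCC and 3 of CAGATG, and touched the Hand2 peak at the start over 229 bp, which was 9.83% of its width. The innermost (chr1:163310237-163310766, 3167 bp inside) held the exact GACCACCC printed above and 1 CAGATG, and overlapped no other peak.

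The upstream peak of *Prrx1* was found in all 3 lists. The Gli3 MNP peak (chr1:163314694-163315470), the whole face peak inside it and the Hand2 peak (chr1:163314379-163315335) had midpoints 1372, 1415 and 1147 bp upstream of the start. The Gli3 MNP peak held 2 copies of CAGATG and 1 of TAATTA, and 642 bp of it were shared with Hand2. Beside the start, a whole face peak (chr1:163313402-163313624, midpoint 155 bp inside, in the 5′ untranslated exon) lay wholly within a Hand2 peak of 949 bp (chr1:163313076-163314024), and the midpoints were 37 bp apart. The Gli3 MNP list had no peak over this stretch, and the wide MNP peak ended short of it.

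Further out, *Prrx1* had the longest run of Hand2 peaks of these genes, 6 peaks over 9638 bp (chr1:163355835-163365472), whose midpoints lay from 42423 to 51582 bp upstream. Its widest peak, 1388 bp, contained a whole face Gli3 peak 44434 bp upstream (chr1:163358035-163358254), which had a GC content of 34.5%, 0 copies of CAGATG and 1 of TAATTA. No Gli3 MNP peak was found there. The last whole face peak, 12016 bp inside the gene (chr1:163301531-163301774), overlapped no other peak and held 1 CAGATG. Of the 28 Hand2 peaks of *Prrx1*, 13 held CAGATG, compared to 47.1% of all Hand2 peaks. Of the 28, 1 had 2 copies, 91697 bp downstream of the start, and 15.6% of all Hand2 peaks had 2 or more. TAATTA was present in 10 of the 28, compared to 14.8% of all Hand2 peaks, and the 28 had a median GC content of 42.9%, compared to 46.9% in the list. Promoter sequences from RefSeq (GRCm38.p6) were matched for 2 of the 4 genes, *Prrx1* and *Prrx2*. That of *Prrx1* (chr1:163313601-163313900) held 10 copies of CCTCC and 1 TAATTA, and that of *Prrx2* (chr2:30845117-30845416) held 6 copies of CCTCC and 0 of TAATTA. The *Prrx2* promoter sequence lies inside the gene, near an inner annotated start and not at the 5′ end of the gene record. Of 32851 mouse promoters of this length, 72.9% held a CCTCC and 5.29% a TAATTA.

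*Prrx2* (ENSMUSG00000039476.13, chr2:30834972-30881251, plus strand) had the most whole face Gli3 peaks, and 4 of the 5 overlapped Hand2. The site 13194 bp upstream of its start was found in all 3 lists, and the whole face peak (chr2:30821670-30821886) lay wholly inside both the Gli3 MNP peak (chr2:30821609-30821984) and the Hand2 peak (chr2:30821662-30822008). The 3 midpoints were within 57 bp of each other. The site lies in an intron of *Ntmt1*, an N-terminal methyltransferase gene, 2121 bp from its start, and 100% of the whole face peak, 86.4% of the Gli3 MNP peak and 80.1% of the Hand2 peak were masked as repeat. Peaks at least 50% masked were 2 of 7 Gli3 MNP peaks, compared to 3.37% of the list, 2 of 12 whole face peaks, compared to 5.2%, and 1 of 78 Hand2 peaks, compared to 3.53%, all at this site and the far upstream site of *Alx4*. CAGATG occurred 1 time in the MNP peak and 0 times in the whole face peak, as the printed sequence shows. The other MNP peak (chr2:30807954-30808392) sat 17 bp from the start of *Ntmt1* and 26799 bp from that of *Prrx2*, overlapped Hand2 over 277 bp and was not in the whole face list.

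Of the other whole face peaks at *Prrx2*, one lay 50176 bp upstream (chr2:30784686-30784907, GC content 73.4%) inside a Hand2 peak. One in a coding exon of *1700001O22Rik* (chr2:30801335-30801624), 33493 bp upstream of *Prrx2*, carried the exact GACCACCC printed above and was the only one without Hand2. Those in the gene, at 1659 bp (chr2:30836476-30836787) and at 8098 bp from the nearer of 2 annotated starts (chr2:30853037-30853278), were each wholly inside a Hand2 peak, of 1230 and 723 bp. No peak of any list had its midpoint within 1 kb of a *Prrx2* start, although the edges of Hand2 peaks on both sides reached into that range. The nearest Hand2 peak (chr2:30833466-30834214, 1132 bp upstream) held the TAATTA and CAGATG printed above, 18 bp apart, and close pairs of this kind, within 20 bp, were in 0.931% of all Hand2 peaks. A Hand2 peak in an intron 20063 bp from the nearer start (chr2:30864826-30865418) held 1 GACCTCCC.

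Peaks that touched one another were joined into 83 sites, 30 at *Prrx1*, 27 at *Alx4*, 17 at *Prrx2* and 9 at *Alx1*. Of these, 68 were in the Hand2 list alone and 3 appeared in all 3 lists. Of the 3, the one over the *Prrx1* start is held together by the Hand2 peak and has Gli3 peaks of the 2 tissues side by side. Another 5 were in the whole face and Hand2 lists, 2 in the Gli3 MNP and Hand2 lists, 3 in the whole face list alone, 1 in the Gli3 MNP list alone and 1 in both Gli3 lists. Counted as peaks, 5 of 7 Gli3 MNP peaks overlapped Hand2, compared to 61.4% of that list, and 8 of 12 whole face peaks, compared to 47.6%. All 8 of the whole face peaks were wholly inside a Hand2 peak. Whole face peaks are narrow, with a median width of 222 bp over the list, compared to 451 bp for Hand2 peaks. Over the whole face list, 44.3% of peaks were at least 50% covered by Hand2, close to the 47.6% with any overlap. With at least 50% of the Gli3 peak covered, the MNP count was 3 of 7, compared to 44.4% of the list, and those lost were the wide peaks at *Alx4* and *Prrx1*, which touch Hand2 at an edge. The other way round, 10 of the 78 Hand2 peaks overlapped a peak of either Gli3 list, compared to 8.31% of all Hand2 peaks, with 5 for the MNP list, compared to 5.89%, and 8 for the whole face list, compared to 4.54%. Between tissues, 3 of 7 Gli3 MNP peaks were in the whole face list, compared to 39.2% of the MNP list, and 3 of 12 whole face peaks were in the MNP list, compared to 37.6%. By gene, 3 of the 4 had a Gli3 MNP peak that overlapped Hand2, compared to 41.6% of all genes, and 3 had such a whole face peak, compared to 25.8%. A Gli3 MNP peak without Hand2 was found at 2 of the 4, compared to 31.7%, and a whole face peak without Hand2 at all 4, compared to 31.9%. A Hand2 peak had its midpoint within 1 kb of a start at 3 of the 4 genes, compared to 33.6% of all genes. Each Gli3 list had such a peak at 1 of 4, *Alx4* in the MNP and *Prrx1* in the whole face, compared to 17% and 6.12% of all genes.

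The whole face list carries a further measure. Its entry names hold a number for each replicate against the mock and against the input, and the sources used here do not say what the number is. Across the list it behaved as an order. When the 5752 entries were put in 10 parts by their mean number over both replicates and both controls, 94.6% of the part with the lowest numbers and 5.22% of the part with the highest overlapped a Gli3 MNP peak, and the shares overlapping Hand2 were 61.8% and 34.6%. By this order the *Prrx2* site 13194 bp upstream, in an intron of *Ntmt1* and wholly masked as repeat, stood out among the 12 peaks. Its numbers against the mock were 88 in replicate 1 and 97 in replicate 2, and it was entry 85 of 5752, among the first 1.48%. The *Prrx1* site 1415 bp upstream had 1017 and 846, entry 819, and the *Prrx2* site 50176 bp upstream had 1133 and 1139, entry 997. The *Prrx1* site in the long Hand2 run had 2314 and 1419, entry 1593. The other 8 peaks were at entries 3037 to 5306, and the *Alx1* peak, with 5897 and 4237 against the mock and 10090 and 9304 against the input, was the last of all 12. The 4 first in this order all overlapped Hand2, compared to 4 of the other 8, and over the whole list low numbers also went with Hand2 overlap. The replicates differed most at the *Prrx2* site 1659 bp inside the gene, with 9933 in replicate 1 and 2858 in replicate 2.

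**Figure D3:**
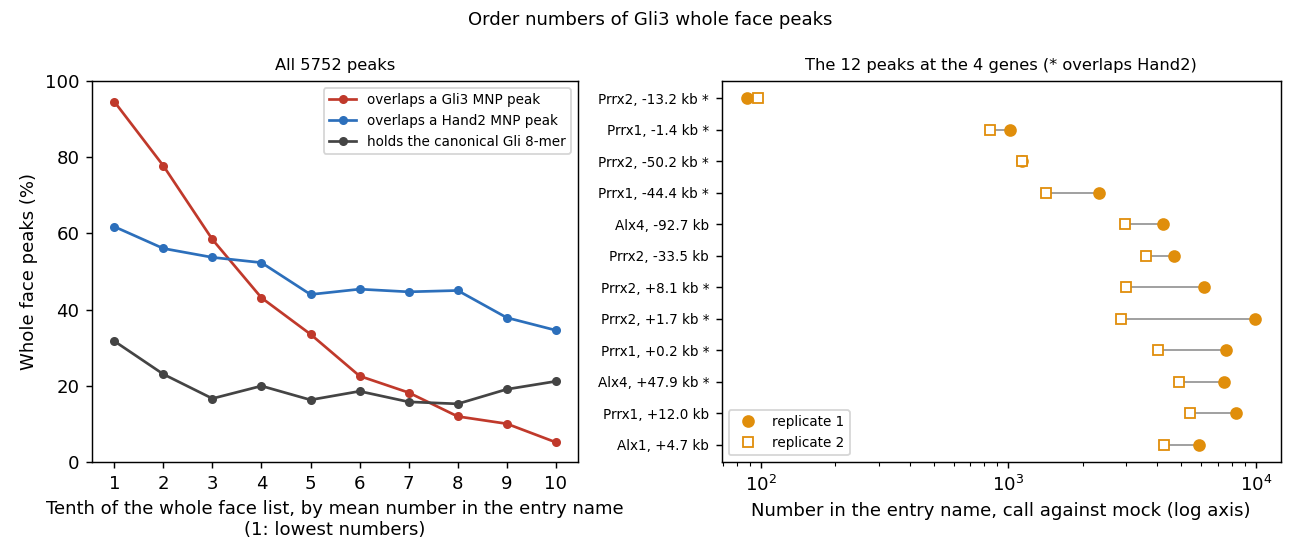
Left, percent of whole face peaks (y axis) that overlap a Gli3 MNP peak, overlap a Hand2 peak or hold GACCACCC, in 10 equal parts of the list ordered by the mean number in the entry name (x axis). Right, the numbers of the 12 peaks at the 4 genes on a log x axis. Filled circles are replicate 1 and open squares replicate 2, with the distance to the start and an asterisk for Hand2 overlap. The *Prrx2* peak with 88 and 97, wholly masked as repeat, stands apart from all others.

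Exact Gli sequences were found in few peaks at the 4 genes, as in the lists as a whole. GACCACCC was found in 1 of 7 Gli3 MNP peaks, compared to 13.3% of the list, in 1 of 12 whole face peaks, compared to 19.8%, and in 0 of 78 Hand2 peaks, compared to 1.49%. An 8-base sequence with at most 1 mismatch was found in 5 of 7 and 7 of 12 Gli3 peaks, compared to 67.1% and 66.4% of the 2 lists, so such sequences are no mark of these genes. GACCTCCC was in 0 of 7 Gli3 MNP peaks, compared to 6.6% of the list, in 0 of 12 whole face peaks, compared to 6.17%, and in 2 of 78 Hand2 peaks, compared to 1.82%. CCTCC, which lies within GACCTCCC, was in 5 of 7 Gli3 MNP peaks, compared to 90.2% of a list that is richer in G and C than the 7 peaks (median GC content 53.2% for the 7 and 62.2% for the list). It was in 8 of 12 whole face peaks, compared to 66.5%, and in 56 of 78 Hand2 peaks, compared to 74.1%.

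CAGATG, which is also counted among CANNTG, was in 4 of the 7 Gli3 MNP peaks, compared to 27.2% of the list, namely all 3 at *Prrx1* and the shared site of *Prrx2*. Within the middle 200 bp of the peak the count was 1 of 7, compared to 10.6%, which is no excess over the list. The *Prrx1* peak with 3 copies is also the widest. Gli3 MNP peaks with 2 or more copies were 2 of 7, both at *Prrx1*, compared to 5.53% of the list. In whole face peaks it was in 2 of 12, compared to 23.3%, and 2 or more copies were in 0 of 12, compared to 3.62%. In Hand2 peaks it was in 40 of 78, compared to 47.1% of the list, and within the middle 200 bp of the peak in 23 of 78, compared to 28.2%, which are shares close to those of the list. Peaks with 2 or more copies were 7 of 78, compared to 15.6%. Any E-box, CANNTG, was in 7 of 7 Gli3 MNP peaks, compared to 83.8% of the list (4 of 7 in the middle 200 bp, compared to 48.3%), in 9 of 12 whole face peaks, compared to 74.1%, and in 72 of 78 Hand2 peaks, compared to 92.3%. TAATTA was in 16 of 78 Hand2 peaks, compared to 14.8%, in 3 of 12 whole face peaks, compared to 8.85%, and in 1 of 7 Gli3 MNP peaks, compared to 7.08%. A TAATTA within 20 bp of a CAGATG was in 0 of 7 Gli3 MNP peaks, compared to 0.424% of the list, and in 0 of 12 whole face peaks, compared to 0.556%. All sequences were searched as exact letters on both strands, and a match is not shown to be a bound site.

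**Figure D4:**
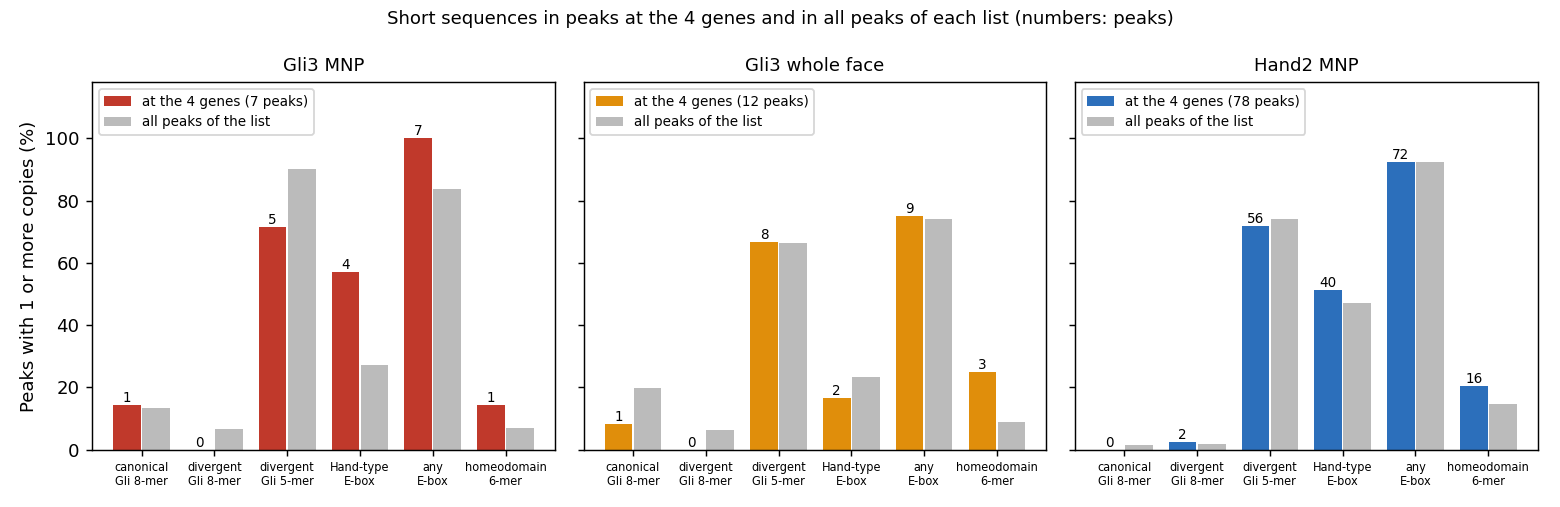
Percent of peaks with 1 or more copies of each short sequence (y axis) at the 4 genes (coloured, number of peaks above the bar) and in the whole list (grey), for the 3 lists. The canonical and divergent Gli 8-mers are GACCACCC and GACCTCCC, the Gli 5-mer is CCTCC, the Hand-type E-box is CAGATG and the homeodomain 6-mer is TAATTA. With 7 and 12 peaks, 1 peak moves the coloured bars of the Gli3 lists by many percent, and the bars of the 78 Hand2 peaks lie close to those of their list.

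As a group, other paired-class homeobox genes had the same median counts as all genes. Of 26 such genes listed beside the 4, 25 were found in the annotation. Of the 25, 16 had a Gli3 MNP peak within 100 kb, 12 a whole face peak and 24 a Hand2 peak. Over all genes the shares were 56.1%, 46.1% and 89%. The median counts of the 25 were 1, 0 and 6. The genes most like each of the 4 were named by the sum over the 3 lists of the difference of square roots of the counts, which is 0 for equal counts. *Gsc*, which encodes the homeodomain TF goosecoid, was among the 2 nearest to *Alx4* (1.39), with 1 Gli3 MNP, 2 whole face and 17 Hand2 peaks. *Hesx1*, a forebrain and pituitary TF gene, had 3, 2 and 15 peaks, was among the 2 nearest to *Prrx2* (1.27) and was the nearest to *Prrx1* (2.004). For *Alx1*, the nearest were *Vsx1* (1.17), with 1, 1 and 9 peaks, and *Dmbx1* (1.38), with 0, 0 and 6.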

How the data were processed

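ChIP-seq with an anti-FLAG antibody was performed on 6 samples, 2 in each of 3 groups. The authors mapped single-end reads to mm10 (GRCm38) with bwa and used bedtools to keep the peaks shared by both replicates, and HOMER also appears in the submitters' processing notes, no tool with a version. For the replicate peaks, a caller was not given in the sources used here. The deposited files hold positions and entry names only, without read counts, so depth and precision could not be stated, and intervals were not computed. Starts were converted to 1-based positions.

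Genes and protein-coding transcript starts came from GENCODE vM21 and sequences from RefSeq GRCm38.p6. Distances run from the peak midpoint to the nearest protein-coding start of the gene. Overlap means at least 1 shared bp, and promoter peaks have their midpoint at most 1 kb from a start. Lower case in the reference was read as repeat, and 3 Gli3 MNP peaks on the mitochondrial genome were not searched for sequence. No test was run, since each group is 1 list and peaks are not replicates. Shares over all genes or all peaks stand beside most counts, while counts of sites and some counts at single genes have none.

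The genes, lists and comparisons were chosen with earlier results of these data known, and the use of the numbers in the entry names and of repeat content was chosen after the values were seen. Genes named are the 4 members, those whose start is nearest to one of their peaks, and for each member the 2 paired-class genes with the most similar counts, and not every gene this selects is reported. Peaks described singly are those of the Gli3 lists, promoter peaks, and Hand2 peaks with a Gli 8-base sequence, 2 or more CAGATG or a close CAGATG and TAATTA pair, and others described singly (the widest peaks and the runs) were chosen after their values were seen. Alternatives were windows of 50 and 200 kb, any base of the peak in the window, the nearest start only, stricter overlap, promoters within 500 bp or 5 kb or at the 5′ end of the gene record, and the middle 200 bp of a peak. The programs were tested on simulated data, with 0 of 300 window and overlap queries wrong. Of 16 simulated motif sequences, some with no planted copy, 0 missed a planted copy, and surplus matches were not checked. Python 3.11.15, numpy 2.4.6, scipy 1.17.1 and matplotlib 3.10.9 were used.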

Additional observations from a re-analysis of the deposited data

How the results depend on the processing

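Of 97 recomputed counts, 59 stayed within 1.5 times the reported value. With a window of 200 kb, the 4 genes had 11 Gli3 MNP, 19 whole face and 134 Hand2 peaks, compared to 7, 12 and 78 at 100 kb, with 9 Gli3 MNP and 13 whole face peaks overlapping Hand2 and 69 Hand2 peaks holding CAGATG. With only the peaks whose nearest start belonged to the gene, these counts were 4, 7 and 34, then 3, 5 and 21. Gli3 MNP peaks overlapping Hand2 numbered 3, in place of 5, when Hand2 had to cover at least 50% of the peak and 3 when its midpoint had to lie in a Hand2 peak, while the whole face count stayed at 8. Promoter peaks of the 3 lists numbered 17 within 5 kb, in place of 5 within 1 kb, and 23 Hand2 peaks held CAGATG in their middle 200 bp, in place of 40 over the whole peak. Of the 32 settings for such totals 16 moved the count by over 1.5 times, and of the 65 for single genes and sequences 22 did. No paired analysis was possible because the results come from no test and each list already joins both replicates. No replicate was left out for the same reason. The lists hold no signal, so that weak and strong peaks count alike, and a gene without a peak is not shown to be unbound. Lists called to different lengths cannot be set against each other as strengths of binding. The MNP is part of the whole face, and for a peak in 1 Gli3 list only, tissue, depth and peak calling cannot be told apart.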
